A study of Mus musculus with 2 samples.

Results

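The genes described here are 42 mouse genes that interferon switches on and that act against viruses, taken by symbol as a fixed list of interferon-stimulated genes outside the GTPase, TRIM, MHC, IRF and STAT families. All 42 had a row among the 24421 rows of the count table. The study sequenced RNA from ovaries of 8-week-old C57BL/6J mice, depleted of ribosomal RNA, and asked how the ovarian transcriptome differs without H19, an imprinted long noncoding RNA. There was 1 wild-type (WT) library and 1 H19 knockout (H19KO) library, the latter described with the allele name H19(Δ3). Neither sample had received a treatment, and how many mice or ovaries went into each library is not given in the sources used here. Since each genotype was sequenced once, replicates could not be checked and no p-values are given. Each comparison therefore describes these libraries and not the genotypes.

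Interferons bind receptors at the cell surface that activate the kinases JAK1, JAK2 and TYK2, which phosphorylate transcription factors of the STAT family. STAT complexes that contain IRF9 bind the interferon-stimulated response element in promoters, whereas STAT pairs formed after interferon gamma bind the gamma-activated sequence. The induced proteins sense or degrade viral RNA, block translation, deplete nucleotides, hold virions at membranes or attach the ubiquitin-like protein ISG15 to other proteins. Many of them are made at a low level without infection, and in the ovary several cell types, including macrophages, stroma, endothelium and granulosa cells, can make them.

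To show the element that several of these promoters share, stretches of promoter are printed below in order of the genes' log2 ratio of H19KO to WT. They run 5′ to 3′ on the gene's own strand and come from RefSeq windows of build GRCm38.p6, which reach from 250 bases before to 50 bases after an annotated start site. Capitals mark the core of the response element, which is GAAA, any 2 bases, GAAA, or the same read on the other strand (TTTC, any 2 bases, TTTC). Matches may overlap each other. Oas3, Apol9a and Apol9b also had a match before a start site, but their stretches are not printed. Each printed stretch holds the run of matches nearest to the start site with up to 25 bases on either side. It stops short of the annotated transcript.
Ifit3: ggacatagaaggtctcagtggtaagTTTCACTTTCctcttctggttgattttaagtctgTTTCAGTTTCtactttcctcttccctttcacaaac
Rsad2: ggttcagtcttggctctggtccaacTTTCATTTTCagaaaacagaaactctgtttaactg
Ifit1: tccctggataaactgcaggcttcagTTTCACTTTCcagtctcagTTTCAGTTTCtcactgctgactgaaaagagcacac
Isg15: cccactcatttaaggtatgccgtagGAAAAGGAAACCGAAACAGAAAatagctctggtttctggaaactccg
Oas1a: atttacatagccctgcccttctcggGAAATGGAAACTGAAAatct
Bst2: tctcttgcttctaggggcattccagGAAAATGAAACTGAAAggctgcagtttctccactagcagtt
Ifitm2: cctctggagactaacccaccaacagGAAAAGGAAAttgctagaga
Oas1g: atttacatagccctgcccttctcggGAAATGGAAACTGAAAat

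These stretches lie at chr19:34583348-34583441 for Ifit3, chr12:26456538-26456597 for Rsad2, chr19:34640760-34640838 for Ifit1, chr4:156200850-156200921 for Isg15, chr5:120907526-120907570 for Oas1a, chr8:71537562-71537627 for Bst2, chr7:140955988-140956032 for Ifitm2 and chr5:120887614-120887656 for Oas1g. Ifit3 and Ifit1 lie on the plus strand and the other 6 on the minus strand. The distance to the start site differed among them. The matches of Oas1a spanned bases 20 to 5 before its start site, those of Isg15 bases 78 to 57 and those of Ifit3 bases 156 to 113.

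The WT library held 23335131 counts and the H19KO library 23041225. H19 had 672 counts in WT, which is 28.9 CPM (counts scaled to a common library size, per 1e6), and none in H19KO. Taking 3 counts as the upper limit of a zero (0.130 CPM), the H19KO level was at least 223-fold lower, as the genotype label implies. Ovarian markers were present in both libraries, among them the granulosa hormone gene Amh with 1214 counts in WT and 778 in H19KO, and the zona pellucida gene Zp3 with 892 and 573. Insl3, a hormone of theca cells, had only 1 and 2 counts. Libraries were scaled by TMM, and every ratio below is H19KO over WT. Each interval is an exact binomial (Clopper-Pearson) 95% interval that covers counting error only, since each genotype had 1 library and reads carried no molecular identifiers. A gene was tested when its mean over both libraries was at least 1 CPM. It was called higher or lower when its whole interval lay above or below an equal level, and beyond 2-fold when the whole interval lay past that limit.

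The antiviral genes were higher in the H19KO library nearly throughout, by modest amounts. Of the 42, 41 had a ratio above 1 under TMM scaling, of which Adar turned to just below 1 (log2 ratio -0.00172) under median-of-ratios scaling. The 1 that did not, Oas1g, had a mean of only 0.884 CPM and was not tested. Among the 41 tested, 34 were called higher and none lower, and the intervals of the other 7 spanned an equal level. Over all 13928 genes tested, 47.9% had a ratio above 1, 22.2% were called higher and 24.0% lower. The median log2 ratio of the 41 was 0.56, a 1.48-fold higher level, beside -0.01 for all genes. Of the 41, 26 exceeded 0.35, the value that 90% of all genes lay below, and 21 exceeded 0.56, which 95% lay below.

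Few of these differences reached 2-fold. Only Ifit3 had its whole interval above 2-fold, where 0.610% of all genes did, and no member had it below, where 0.388% did. Against a limit of 1.5-fold, 10 of the 41 lay wholly above it, against 1.80% of all genes. They were Ifit1, Ifit2, Ifit3, Rsad2, Uba7, Parp9, Parp14, Ifi44, Ifitm3 and Apol9a. For 29 of the 41 the interval lay wholly under 2-fold, so at this depth counting error alone does not bring them to that size. The width of the intervals ranged from 0.09 log2 units for Ifitm2 to 1.21 for Mx1, with a median of 0.37.

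**Figure D1:**
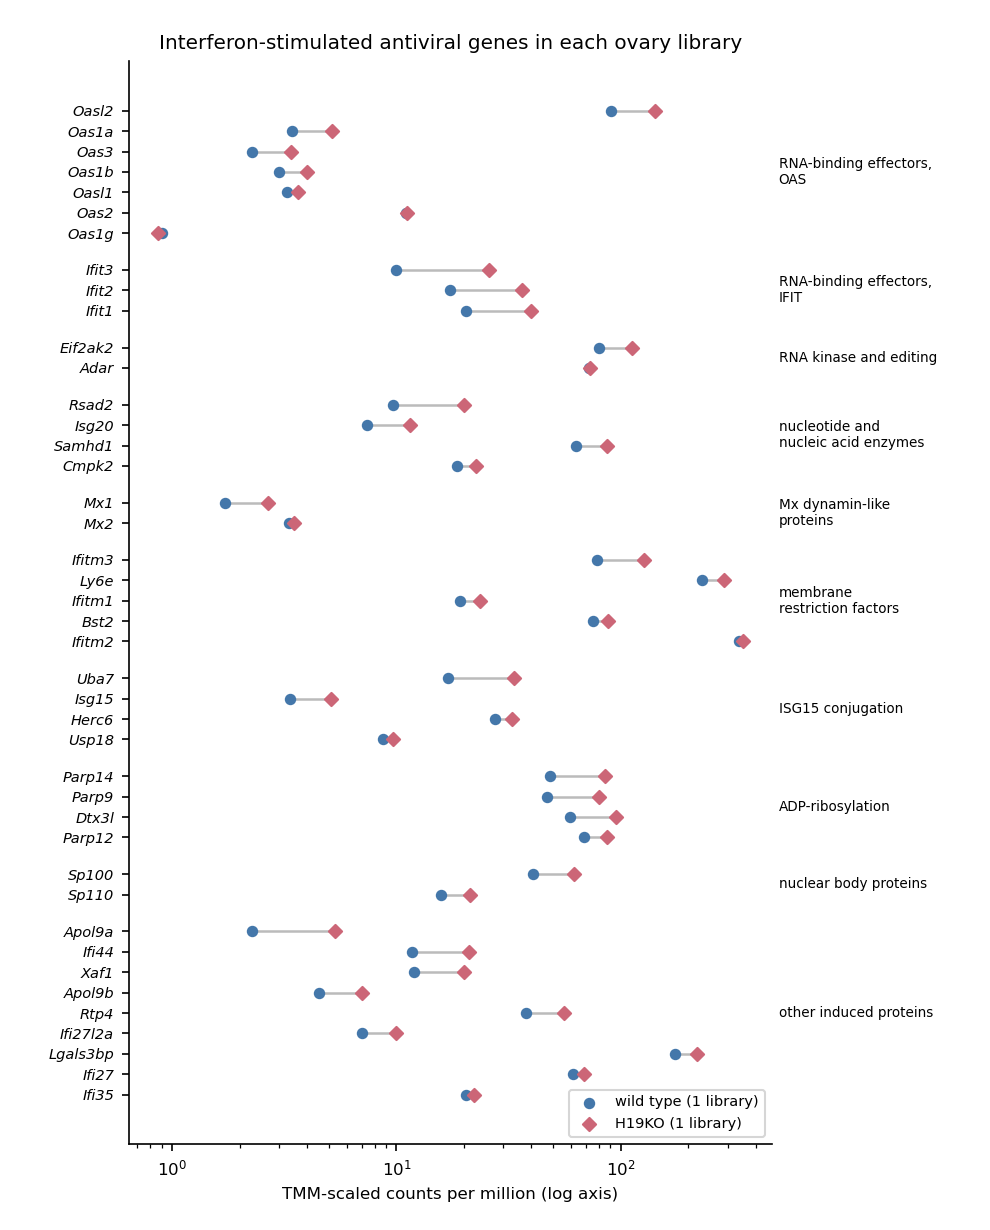
Level of each of the 42 genes in the WT library (circles) and the H19KO library (diamonds), in TMM-scaled CPM on a log axis, grouped by role and ordered within a group by ratio. Under this scaling the diamond lies to the right of the circle for 41 genes, for Adar by so little that another scaling turns it, and Oas1g, the lowest at 0.884 CPM on average, is the exception.

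The IFIT genes, which encode proteins that bind viral RNA through its 5′ end and block its translation, had the highest median log2 ratio of all roles, 1.07. They lie near one another on chromosome 19. Ifit1 (34640871 to 34650009 on mm10) had 475 counts in WT and 921 in H19KO (log2 ratio 0.96, 0.80 to 1.13). Ifit2 (34550694 to 34576419) had 404 and 843 counts (log2 ratio 1.07, 0.90 to 1.24). Ifit3 (34583531 to 34588731) had 232 and 596 counts, or 9.98 and 25.8 CPM (log2 ratio 1.37, 1.15 to 1.59), the highest ratio of all members. The 3 IFIT genes were thus near 2-fold or above it, and the intervals of Ifit1 and Ifit3 did not overlap. Ifit3 shares 40.7% of its transcript 76-mers, the length of a read, with its copy Ifit3b, so reads may have been split between the rows. Ifit3b had 67 and 180 counts, and the sum of both rows had (log2 ratio 1.38, 1.19 to 1.58), still wholly beyond 2-fold. A more distant relative, Ifit1bl2, which shares 5.11% of the 76-mers of Ifit1, had 221 and 224 counts (log2 ratio 0.03, -0.25 to 0.30).

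The OAS genes encode oligoadenylate synthetases, which make a second messenger on double-stranded RNA that leads to RNA decay, and catalytically inactive relatives. Their ratios spread more widely than those of the IFIT genes, but most of them had far fewer counts. Oasl2, a ubiquitin-domain member on chromosome 5 at 114896936 to 114912234, was by far the most abundant with 2103 and 3297 counts (log2 ratio 0.66, 0.58 to 0.74). Oas1a had 80 and 120 counts (0.59, 0.17 to 1.02) and Oas3 53 and 78 (0.56, 0.04 to 1.10), both called higher. Oas2 was equal in the libraries at 256 and 258 counts, with (log2 ratio 0.02, -0.24 to 0.27). Its interval lay wholly below that of Oasl2, so these OAS genes differed in ratio by more than counting error. Oas1b, known to be truncated in common laboratory strains, had 70 and 92 counts (0.40, -0.06 to 0.87), and Oasl1 had 76 and 84 (0.15, -0.31 to 0.62). Oas1g had 21 and 20 counts, too few to tell an equal level from a difference of either sign. Oas1a and Oas1g share 47.3% of the 76-mers of Oas1a, and their promoter stretches printed above carry the same capitals. Their summed counts were 101 and 140 (log2 ratio 0.48, 0.10 to 0.86).

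The mouse Oas1 cluster also holds paralogues known for expression in the oocyte, and these went the other way. They were not among the 42 genes and were picked out after their values had been seen. Oas1c had 401 counts in WT and 274 in H19KO (log2 ratio -0.54, -0.77 to -0.32). Oas1d had 428 and 350 counts (-0.28, -0.49 to -0.08) and Oas1e 436 and 311 (-0.48, -0.69 to -0.27). All 3 were called lower, as were 24.0% of all genes tested. Oas1h had 185 and 153 counts, with an interval spanning equal levels (-0.27, -0.58 to 0.05). The 7 oocyte markers had a median log2 ratio of -0.28 and a range of -0.63 to -0.03. Whether the paralogues and the oocyte markers moved for one reason was not tested.

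Of the genes for the RNA-activated kinase PKR and the RNA-editing enzyme ADAR, only the first was higher. Eif2ak2, the PKR gene, had 1863 and 2592 counts (log2 ratio 0.48, 0.40 to 0.57). Adar had 1682 and 1680 counts (log2 ratio 0.01, -0.09 to 0.10), the member nearest to equal levels. The Adar gene makes both a constitutive and an interferon-inducible transcript, which a count per gene does not separate. Chrnb2 on the opposite strand overlaps 16.8% of the Adar exon length, and the strand setting of the counting is not given.

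Enzymes that act on nucleotides and nucleic acids were all called higher, to different extents, beside 22.2% of all genes tested. Rsad2 encodes viperin, which makes a chain-terminating nucleotide that stalls viral RNA synthesis. It had 225 counts in WT and 463 in H19KO (log2 ratio 1.05, 0.82 to 1.29). Its neighbour Cmpk2, a nucleotide kinase that supplies viperin's substrate, lies next to it on chromosome 12 (26469204 to 26479837, beside 26442746 to 26456452 for Rsad2). Cmpk2 had 433 and 523 counts (log2 ratio 0.28, 0.09 to 0.47), so the intervals of these neighbours did not overlap. The RNA exonuclease gene Isg20 had 172 and 267 counts (0.64, 0.36 to 0.93). Samhd1, whose product destroys deoxynucleotides that retroviruses need, had 1476 and 2019 counts (0.46, 0.36 to 0.56).

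The Mx genes encode dynamin-like proteins that trap viral nucleoproteins, and common laboratory strains are known to carry defective alleles of both. Mx1 had 40 counts in WT and 62 in H19KO (log2 ratio 0.63, 0.04 to 1.25), with an interval just above an equal level. Mx2 had 77 and 81 counts (0.08, -0.39 to 0.55). With so few counts the intervals overlapped widely.

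Restriction factors that sit in membranes were all called higher, beside 22.2% of all genes tested, with small ratios apart from that of Ifitm3. The IFITM proteins keep viruses from fusing with endosomes and are also known from primordial germ cells. Ifitm2 (chromosome 7, 140954837 to 140955987) had 7835 and 8111 counts, or 514 and 536 CPM per kilobase of exon (log2 ratio 0.06, 0.01 to 0.10). Ifitm3 (141009586 to 141010770) had 1814 and 2932 counts, or 115 and 187 CPM per kilobase (log2 ratio 0.70, 0.62 to 0.79). Ifitm1, which lies between them, had 448 and 548 counts (0.30, 0.12 to 0.48). The intervals of these 3 neighbouring genes did not overlap one another. No exact 76-mer of any of them occurred in annotated transcripts of another gene in the table. Matches with mismatches, and copies outside the table or the annotation, were not searched. Tetherin, from Bst2, holds budding virions at the cell surface, and its gene had 1750 and 2031 counts (0.22, 0.13 to 0.32). Ly6e, a lipid-anchored surface protein that limits coronavirus entry, had 5345 and 6711 counts (0.34, 0.28 to 0.39).

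**Figure D2:**
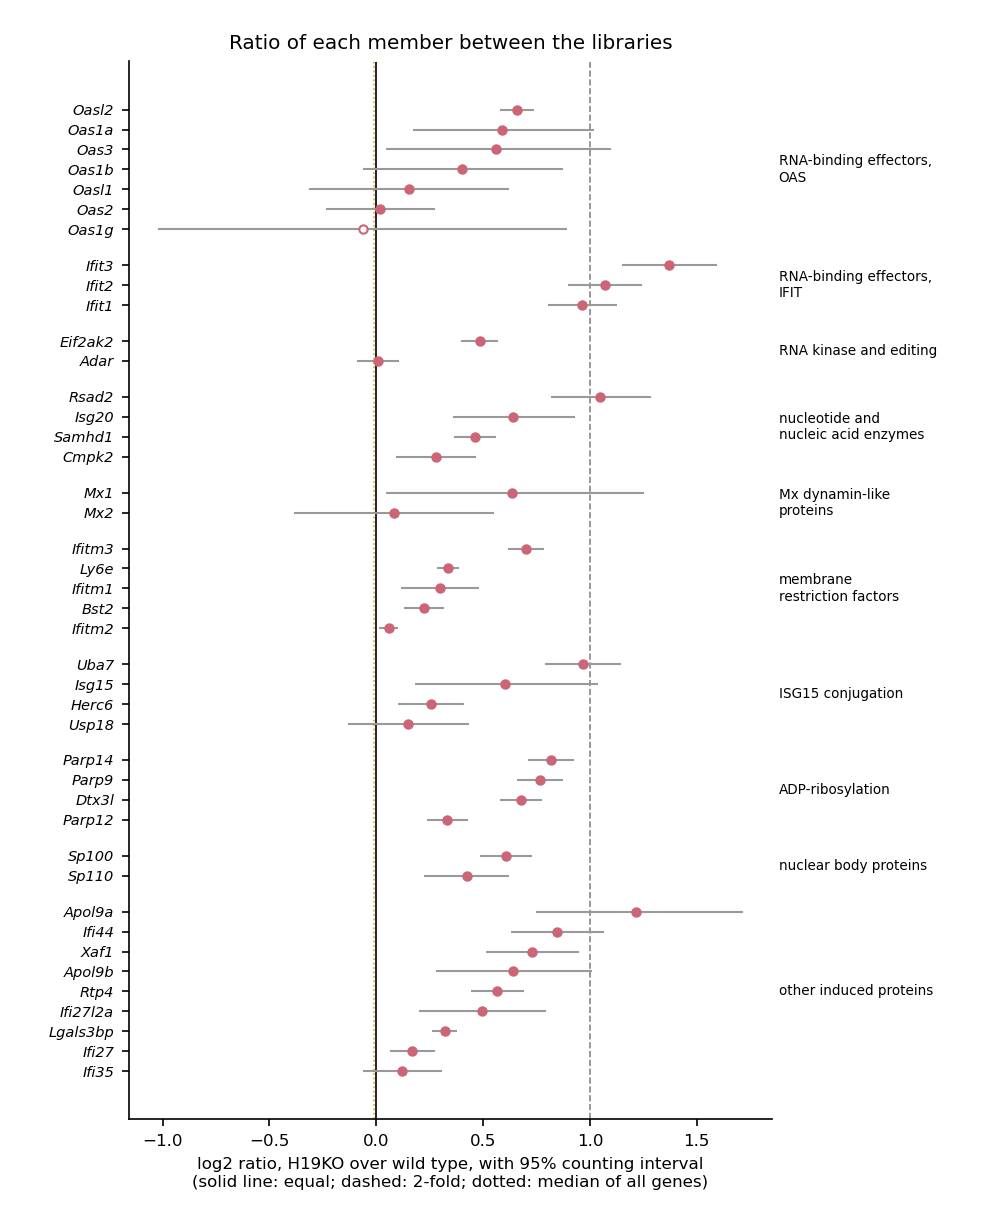
Log2 ratio of H19KO to WT for each of the 42 genes with its 95% counting interval, grouped by role. The solid line marks equal levels, the dashed line 2-fold and the dotted line the median of all genes at -0.01, and the open circle is Oas1g, which was not tested. Only the Ifit3 interval lies wholly right of the dashed line, while those of Adar, Oas2 and Ifitm2 lie close to the solid line.

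ISG15 is attached to proteins by the activating enzyme UBA7, the conjugating enzyme UBE2L6 and, in mice, the ligase HERC6, and is removed by USP18. Isg15 itself had few counts, 78 in WT and 118 in H19KO (log2 ratio 0.60, 0.18 to 1.04). Uba7 had 396 and 770 counts (log2 ratio 0.97, 0.79 to 1.15), and Ube2l6, which was not a member, 694 and 1349 counts and the same log2 ratio of 0.97 (0.83 to 1.10). The activating and conjugating enzymes were thus each close to 2-fold higher. The ligase and the protease stood lower in ratio than these enzymes. Herc6 had 640 and 759 counts (0.25, 0.10 to 0.41), and Usp18, which also restrains the interferon receptor, had 202 and 223 counts with an interval spanning equal levels (0.15, -0.13 to 0.43). Neither interval overlapped that of Uba7.

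The ADP-ribosyltransferase genes were higher as a group, and the 3 that lie together on chromosome 16 had the closest ratios. PARP9 works in a complex with the ubiquitin ligase DTX3L, and their genes start head to head. Parp9 (35938470 to 35972605) had 1094 and 1851 counts (log2 ratio 0.77, 0.66 to 0.88). Dtx3l (35926511 to 35939151) had 1382 and 2199 counts (0.68, 0.58 to 0.78), and Parp14 (35832874 to 35871544) 1126 and 1972 counts (0.82, 0.71 to 0.92). The intervals of these 3 genes overlapped one another. Parp9 and Dtx3l exons overlap on opposite strands over 9.40% of the Parp9 exon length. Parp12, which lies on chromosome 6 and encodes a stress granule and Golgi protein, had 1597 and 2000 counts and a lower log2 ratio of 0.33 (0.24 to 0.43).

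The nuclear body genes Sp100 and Sp110 encode chromatin-associated proteins that silence incoming viral DNA or bind nuclear bodies. Sp100 had 941 and 1425 counts (log2 ratio 0.61, 0.49 to 0.73), and Sp110 369 and 492 counts (0.42, 0.23 to 0.62). Both were called higher, as were 22.2% of all genes tested, and their intervals overlapped.

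Of the remaining 9 members 8 were called higher, beside 22.2% of all genes tested. Ifi44, which encodes a cytoplasmic protein with antiproliferative activity, had 272 counts in WT and 487 in H19KO (log2 ratio 0.85, 0.63 to 1.07). Xaf1, whose product counters an inhibitor of apoptosis, had 280 and 462 counts (0.73, 0.51 to 0.95). Rtp4, a receptor-trafficking protein that binds viral RNA complexes, had 881 and 1297 counts (0.57, 0.44 to 0.69). The intervals of Rtp4 and Xaf1 lay wholly below 2-fold, while that of Ifi44 reached it. Apol9a and Apol9b encode apolipoprotein L family proteins and are near-identical over part of their length, with 43.0% of the Apol9b 76-mers found in Apol9a. Apol9a had 53 and 123 counts (1.21, 0.75 to 1.72), Apol9b 105 and 163 (0.64, 0.28 to 1.01), and their sum 158 and 286 (0.86, 0.58 to 1.15). The sum is the safer value, since reads of one copy may be assigned to the other. Lgals3bp, a secreted glycoprotein that binds galectins, was the most abundant of these by count at 4077 and 5061 (0.32, 0.26 to 0.38). The IFI27 family encodes small mitochondrial or membrane proteins, and both its genes here were called higher. Ifi27 had 1420 and 1588 counts (0.17, 0.07 to 0.27) and Ifi27l2a 164 and 230 (0.49, 0.20 to 0.79). Ifi35, a leucine-zipper protein, had 473 and 512 counts, with an interval spanning equal levels (0.12, -0.06 to 0.31).

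The members lay in the upper part of the cloud of all genes at low and at high levels, as the plot of ratio against level shows. The most abundant, Ifitm2 with a mean of 344 CPM, had one of the lowest ratios. The median level of the tested members was 21.5 CPM, beside 30.1 CPM for all genes.

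**Figure D3:**
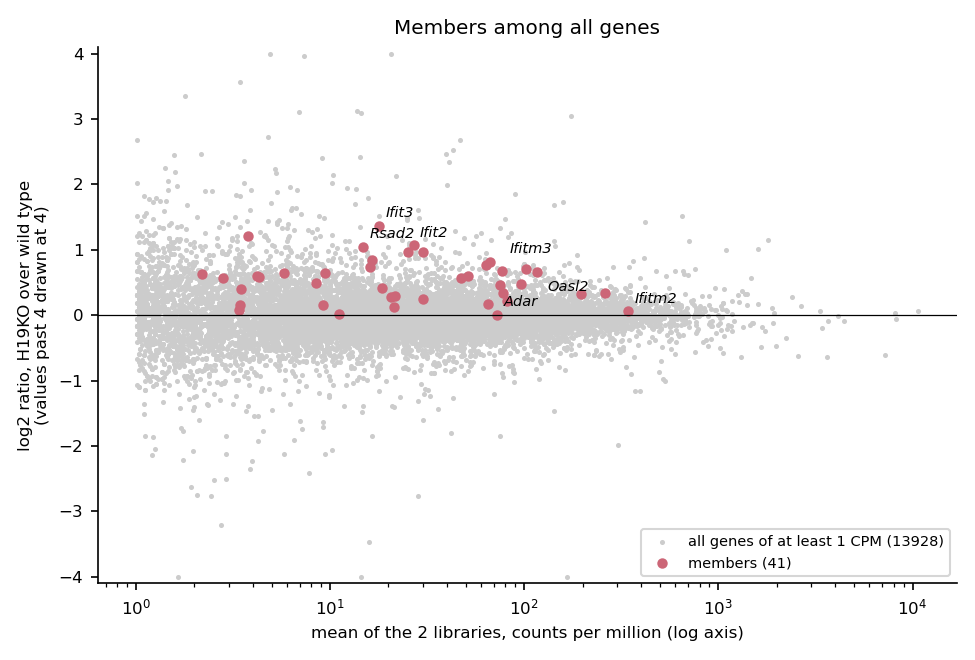
Log2 ratio of H19KO to WT against the mean level of both libraries in CPM (log axis) for the 13928 genes tested (grey) and the 41 tested members (red). All 41 red points lie above 0 under TMM scaling, Adar at 0.01 by a margin that another scaling turns, with Ifit3 highest at 1.37.

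The response element core was common in these promoters. RefSeq windows were found for 31 of the 42 genes, and the core was in the window of 13, or 41.9% of them. In 11 genes it lay before a start site, and in Eif2ak2 and Ifitm3 it lay only in the bases after it. Of all 32851 windows 3.44% held it, as did 3.99% of the 27025 genes with a window. The gamma-activated core, TTCNNNGAA, which reads the same on both strands and can share bases with the other core, was in 9 of the 31 genes, or 29.0%, against 9.55% of all genes. A match is a description of the letters and not evidence of binding, and genes without a match here may carry the element outside the window.

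Members with and without the response element core overlapped in ratio. The 12 tested members with a match had a median log2 ratio of 0.62 and ranged from 0.06 to 1.37. The 18 tested members without a match had a median of 0.44 and ranged from 0.01 to 1.07. These ranges overlapped over most of their length. Bst2 and Ifitm2 carry the element as Ifit1 and Ifit3 do, yet had log2 ratios of 0.22 and 0.06. Ifit2 and Uba7 had 1.07 and 0.97 with no match to it in their windows. For the gamma-activated core the order of the medians was reversed. The 9 tested members with it had a median of 0.48 and the 21 without it 0.61. Their ranges were 0.01 to 1.07 and 0.06 to 1.37.

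**Figure D4:**
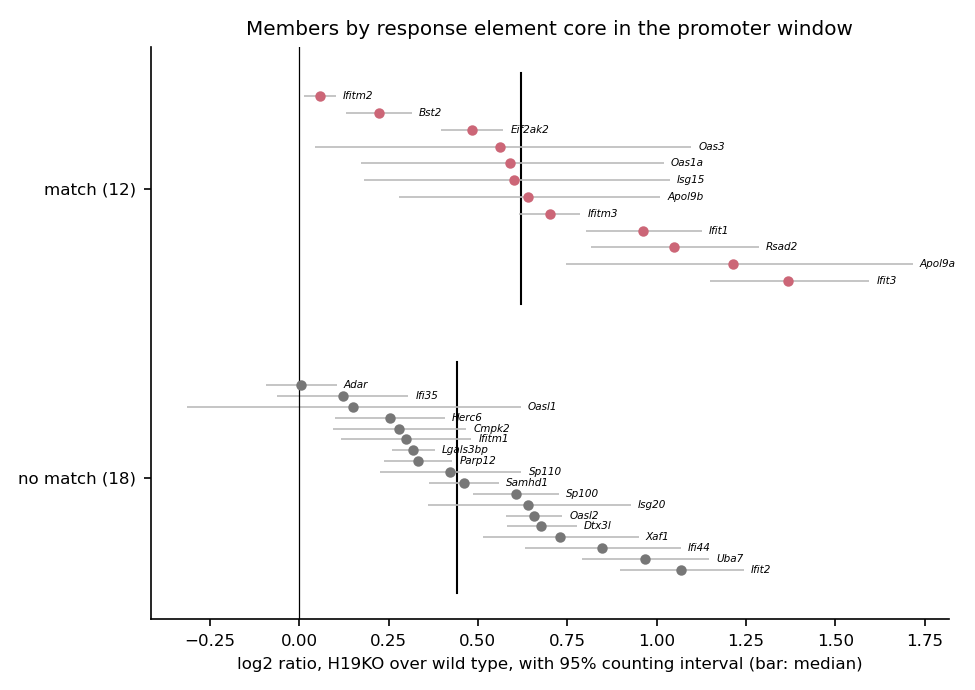
Log2 ratio of H19KO to WT with 95% counting intervals for the 30 tested members with a RefSeq promoter window, 12 with a match to the response element core (top) and 18 without (bottom). The vertical bars mark the medians of 0.62 and 0.44, and the points of both rows spread over much the same range.

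Upstream in the pathway, the interferon genes themselves had at most 2 counts in a library, too few to test. All 21 listed ligand genes had a row, 19 of them with 0 counts in both libraries, which allows up to 0.129 CPM in WT and 0.130 in H19KO for each. Ifng, the gene for interferon gamma, had 1 and 2 counts, and Ifnz 0 and 1. The receptor genes had a median log2 ratio of 0.08, with 3 of 6 called higher and none lower, against 22.2% and 24.0% of all genes tested. Ifnar1 and Ifnar2, the subunits for type I interferon, had 4444 and 4623 counts (0.06, 0.01 to 0.12) and 2068 and 2581 (0.33, 0.24 to 0.41). Il10rb, shared by the lambda interferon and interleukin 10 receptors, had 1493 and 2283 counts (0.62, 0.53 to 0.72).

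The signalling genes differed in ratio from one another. Of 11 JAK, STAT and IRF genes 8 were called higher and none lower, against 22.2% and 24.0% of all genes tested. Their median log2 ratio was 0.31. Irf7 had 436 and 848 counts (0.97, 0.80 to 1.14), whereas the most abundant kinase gene, Jak1, had 11862 and 11587 (-0.03, -0.06 to 0.01). The 6 brakes of the pathway had a median of -0.08, with 1 called higher and 1 lower, near those shares of all genes. The phosphatase gene Ptpn6, which is also a leukocyte gene, had 261 and 415 counts (0.68, 0.45 to 0.91) and the STAT inhibitor gene Pias1 2015 and 1849 (-0.12, -0.21 to -0.02).

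Other interferon-induced families had higher ratios in the same libraries. All 16 tested interferon-inducible GTPases lay wholly beyond 2-fold, with log2 ratios from 1.21 to 4.70 and a median of 2.18. Iigp1, which attacks the vacuoles of intracellular parasites, had 872 and 7179 counts, and Gbp2, a guanylate-binding protein, 1698 and 5603. Of the 10 genes for class I antigen presentation all were called higher, 4 beyond 2-fold, with a median of 0.95. Over all genes tested, 22.2% were called higher and 0.610% lay beyond 2-fold higher. B2m, the class I light chain, had 24612 and 49236 counts, and Psmb9, an immunoproteasome subunit, 94 and 380. The antiviral genes, with 1 of 41 beyond 2-fold and a median of 0.56, had the lowest median of these 3 lists. No test of the difference between the lists was made, because all values come from the same pair of libraries. The GTPases were already known to lead the genes higher in H19KO when these lists were drawn up, so their position is no independent result.

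**Figure D5:**
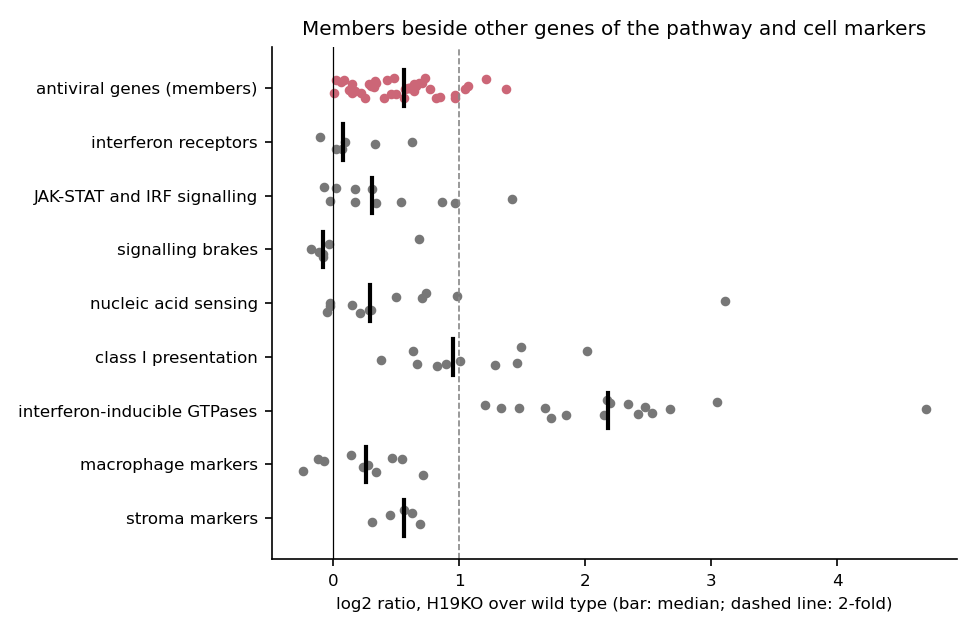
Log2 ratio of H19KO to WT for the tested antiviral genes and for genes of 8 other lists, with 1 point per gene and bars at the medians. The antiviral genes centre on 0.56, the interferon-inducible GTPases on 2.18 and the signalling brakes on -0.08.

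Marker genes of some cell types also differed between the libraries. In whole ovaries more cells of a type and more RNA per cell cannot be told apart. The counts of calls below stand beside 22.2% of all tested genes called higher and 24.0% called lower. The 10 macrophage markers summed to 385 CPM in WT and 475 CPM in H19KO, with 7 called higher and 1 lower, and ranged from -0.24 for Csf1r to 0.71 for Fcgr1, which interferon also induces. The 5 stromal markers were all called higher and summed to 2288 and 3348 CPM, with a median log2 ratio of 0.56, the same as that of the antiviral genes. Endothelial markers summed to 607 and 529 CPM, with 4 of 6 called lower and 1 higher. Granulosa markers summed to 2030 and 1630 CPM, with 5 of 6 called lower and 1 higher. Among those called lower was Cyp19a1, the aromatase gene, with 1052 and 345 counts (-1.60, -1.78 to -1.42). Theca and luteal markers summed to 8571 and 7939 CPM, with 4 of 5 called lower and 1 higher. That sum is mostly Cyp11a1 and Star, and within it Cyp17a1, an androgen synthesis gene of theca cells, had 11243 and 2834 counts (-1.98, -2.04 to -1.92), wholly beyond 2-fold lower. Surface epithelium markers summed to 107 and 122 CPM, with 3 of 4 called higher and 1 lower. Oviduct and fat markers had like sums of 17.7 and 18.8 CPM, but the 2 that were tested were called in opposite directions. The oviduct gene Ovgp1 had 33 and 134 counts (2.01, 1.47 to 2.63), wholly beyond 2-fold higher. The fat cell gene Plin1 had 341 and 253 (-0.42, -0.66 to -0.18). The rest of that list, all below the minimum for testing, did not follow them. Pax8 had 9 and 9 counts, Foxj1 11 and 3, Adipoq 5 and 3, and Cfd 12 and 33. Neither Ovgp1 nor Plin1 alone gives the amount of a tissue. The part of these cell types in the antiviral ratios was not tested.

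Markers of other blood cells were present at lower levels, and their part was not tested either. The 11 T and NK cell markers summed to 11.1 and 11.3 CPM, and of the 3 that were tested 1 was called higher and 1 lower. Gzmb, a granule protease of killer cells, had 22 and 43 counts (0.96, 0.20 to 1.79), and Cd4 had 127 and 93 (-0.44, -0.84 to -0.04). Cd3e, which defines T cells, had 16 counts in each library and was below the minimum for testing. Dendritic cell markers summed to 28.2 and 31.8 CPM, with 1 of 4 called higher, Zbtb46, at 428 and 509 counts (0.26, 0.07 to 0.45). With 22.2% of all tested genes called higher and 24.0% lower, single calls in lists this short say little about these cells. Siglech, which marks the plasmacytoid cells known for type I interferon, had 14 and 8 counts, below the minimum, with an interval spanning equal levels (-0.76, -2.26 to 0.55). The 4 B cell markers summed to 3.01 and 2.29 CPM and the neutrophil markers to 5.68 and 4.37 CPM, with no tested gene of either list called.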

How the data were processed

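Ovary RNA was sequenced in 1 WT and 1 H19KO library with a stranded total RNA kit and paired 76-base reads, per the labels' protocols. The authors deposited whole-number counts per gene symbol. The submitters' processing notes name STAR 2.5.0a, Cufflinks 2.2.1, DESeq2 1.0.0 and mm10, without roles. Not given in the sources used here are the counting program, its annotation and strand option, and whether counts were rescaled. The median ratio of genes counted in both libraries was 1, and median-of-ratios scaling gave both libraries the same size. The authors may therefore have scaled the counts already, which would make the counting intervals off by an unknown amount. Libraries were assigned to groups by the genotype label.

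TMM factors came from edgeR 4.0.16, and 0.5 was added to scaled counts before taking log2. Intervals are conditional on the summed count of both libraries. They were tested on simulated counts that held counting error only, so that check does not cover variation between mice or libraries. The 27 rows that carry dates in place of symbols stayed in the totals. Positions, exon lengths and shared 76-mers are from GENCODE M21 (mm10). A member was taken to share sequence when at least 10% of its exon length or 76-mers did. Alternatives were scaling by total count, by DESeq2 1.42.0 size factors or by totals that leave out the 10 genes with most counts, other minimum levels, added counts, interval levels and fold limits, the point ratio, and removal or summing of genes with shared sequence. The members, lists and rules were chosen with earlier results of these data known. Every member is named. From each other list up to 4 genes were to be named, the 2 most abundant and the 2 farthest from equal by the nearer interval bound, and genes named beyond that were chosen after their values were seen. Computation used Python 3.11.15, scipy 1.17.1 and R 4.3.3. Some genes of the other lists are not reported here.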

Additional observations from a re-analysis of the deposited data

How the results depend on the processing

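The count of members beyond 2-fold depended on the rule. It was 4 when the point ratio decided (Ifit3, Apol9a, Ifit2 and Rsad2), 10 with a limit of 1.5-fold, and 0 without the 6 members that share exons or near-identical sequence with another gene, since Ifit3 is one of these. The other 42 of 45 values of counts, median and H19 bound kept their direction and stayed within 1.5 times the value reported, or within the members' typical counting error for the median, which ranged from 0.49 to 0.57. Of 243 member log2 ratios under the alternatives 242 stayed within the member's own counting interval. No member called higher changed sign. Adar, which was not called, went from 0.0063 to -0.00172 under median-of-ratios scaling. Another scaling moved no member by more than 0.0103. The counts may have been scaled already, which would leave other scalings little to change, so this is a weak check. The median of all genes lay between -0.02 and 0.00 under the scalings. Summing near-identical rows, an alternative chosen after seeing the data, kept Ifit3 beyond 2-fold and moved Ifit1, summed with Ifit1bl2, to 0.73, the 1 exception. Leaving out replicates was not possible with 1 library per genotype. No paired analysis was possible because neither genotype had a repeat. Depth limits Oas1g, Mx1, Mx2, Oas3, Oas1b, Oasl1, Isg15 and Apol9a, which have the fewest counts.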

Other observations

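The cytoplasmic and endosomal sensors that start an interferon response were partly higher in the H19KO library. Of 12 listed sensing genes, all tested, 8 were called higher and none lower. Their median log2 ratio was 0.29, with a range of -0.05 to 3.11. Over all genes tested, 22.2% were called higher, 24.0% lower and 0.610% beyond 2-fold higher. The RNA sensor genes Ifih1 and Ddx58, for MDA5 and RIG-I, had 1034 and 1674 counts in WT and H19KO (0.70, 0.59 to 0.82) and 2131 and 2612 counts (0.30, 0.22 to 0.38). Zbp1, whose product binds left-handed nucleic acid, had 33 and 287 counts (3.11, 2.61 to 3.69), the only one of the 12 beyond 2-fold. Mavs, the adaptor on mitochondria that both RNA sensors use, had 1694 and 1653 counts (-0.03, -0.13 to 0.07). Ifih1 and Ddx58 are themselves induced by interferon, whereas Mavs is not known for it. Whether this bears on their ratios was not tested.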
